A study of Coturnix japonica with 42 samples.

Results

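Genes for receptors of fast and slow neurotransmitters were followed in the mediobasal hypothalamus of the Japanese quail, Coturnix japonica, through 1 short day and the 2 long days after it. Members were taken by gene symbol: those starting with GABR, GABBR, GRIA, GRIK, GRIN, GRID, CHRN, CHRM, HTR or DRD, or with GRM and a digit, where a probe set carried a single symbol, with GRINA left out. The rule took 76 of the 13009 genes with a single symbol on the array, represented by 142 probe sets, and the brightest probe set over all arrays stood for each gene. Of these, 73 encode a receptor or receptor subunit and are called receptor genes here. The other 3, GRID2IP, HTRA2 and HTRA3, share only first letters with the families and are described apart. The genes were taken by name, with earlier results of these data known, and the probe set of each gene by its signal.

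The males were 8 weeks old. For 4 weeks their light had lasted 6 h and the night 18 h, and the long days gave them light for 20 h with a night of 4 h. At each of 21 time points, 6 birds were sampled, and RNA of 3 birds was pooled on each of 2 arrays, so n counts pools. Time was read as hours from lights on of the short day. This puts 6 h of the short day at lights off, and it is counted here as a lit hour. On that reading the short day spans 2 to 22 h (12 arrays), the first long day 26 to 46 h (18 arrays, with added times at 36, 40 and 44 h), and the second 50 to 70 h (12 arrays). There was no group of birds held on short days throughout, so day length cannot be told apart from the order of the days. The arrays carry probes designed for chicken, and the levels of different genes are not compared with each other.

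Ionotropic receptors are channels opened by the transmitter itself: AMPA, kainate and NMDA receptors by glutamate, GABA-A receptors by GABA, and nicotinic receptors by acetylcholine. Metabotropic glutamate, GABA-B, muscarinic, dopamine and most serotonin receptors act through G proteins and change the excitability of a neuron over a longer time. The mediobasal hypothalamus holds the arcuate and ventromedial neurons that govern feeding and reproduction and, in quail, is the region whose response to long days starts gonadal growth. Subunit make-up sets how a channel behaves, so these genes were described subunit by subunit.

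The 2% trimmed mean per array on the deposited scale ran from 28.8 to 40.8 on the short day, from 27.1 to 37.9 on the first long day and from 25.1 to 35.5 on the second. Each array was rescaled to the same trimmed mean, and values named signal are on that scale. Replicate arrays correlated with each other at 0.891 to 0.904 on the short day, at 0.890 to 0.907 on the first long day and at 0.812 to 0.890 on the second, with the lowest at 62 h. Results that rest on the second long day are therefore also given without 62 h where that ends a call. Of 10 genes listed for the mediobasal hypothalamus and kept for testing, 8, among them POMC, AGRP, NPY, NR5A1 and NKX2-1, lay above the array median on all 42 arrays. HMX3, also on that list, never did.

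Receptor genes of every class were kept for testing. A gene was kept if at least 2 arrays had it above their median signal, as 68 of 73 receptor genes and 12289 of all 13009 genes were. Above the array median on all 42 arrays were 34 of the 68 and 5686 of the 12289. The counts by class rest on different probes and rank no class by its level: all 4 AMPA genes, 3 of 4 kainate, 2 of 4 NMDA, the delta gene GRID1, 4 of 6 metabotropic glutamate, 9 of 15 GABA-A, the GABA-B gene GABBR2, 5 of 15 nicotinic, 1 of 4 muscarinic (CHRM5), 4 of 14 serotonin and 0 of 5 dopamine genes. GABRA6, GABRR2, CHRNG, HTR2B and HTR6 were not kept. CHRNG, the gamma subunit of the muscle nicotinic receptor, lay at or under the floor of 3.509 on all 42 arrays, and HTR6 did so on 41. A further 15 kept genes were above the array median on fewer than 21 arrays, and 23 kept genes had at least 1 array at the floor, below which differences are not measured.

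The spread between arrays set what could be seen. Across the 34 receptor genes above the median on all arrays, the replicate SD was 0.25 on the log2 scale at the median gene, and the range of the 21 time means had a median of 0.78. In the other 34 kept genes these values were 0.69 and 1.89. GRIA2, the AMPA subunit that sets calcium permeability, varied least, with a range of time means of 0.31 and an SD between arrays of 0.09. DRD2, a dopamine receptor, had the widest range of time means at 2.60, with an SD between arrays of 0.70. The widest ranges thus came with wide spreads between arrays, as the plot of all time means shows.

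**Figure D1:**
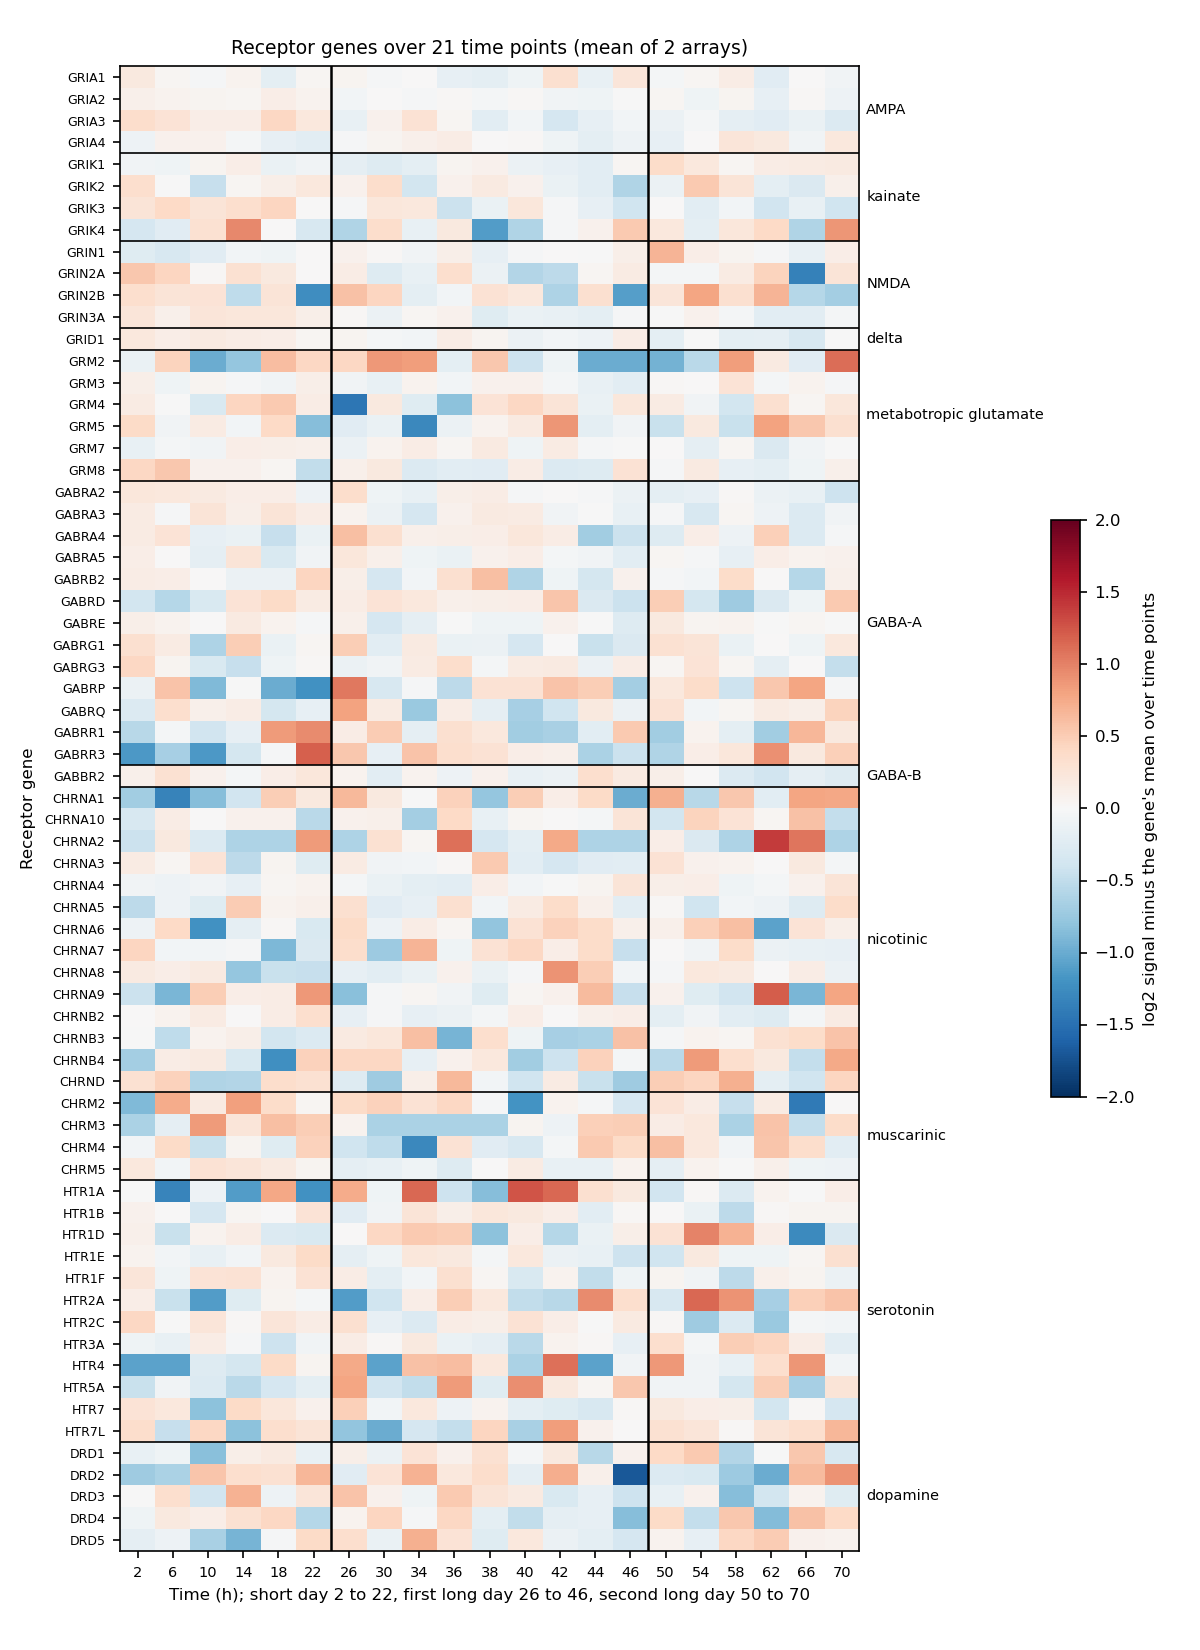
Mean log2 signal of 2 arrays at each of 21 time points (columns, in h) for the 68 kept receptor genes (rows, grouped by class), minus the gene's mean over the time points; red is above and blue below that mean. Rows of GRIA3, GRIK3 and GABRA2 are mostly red on the short day and mostly blue on the second long day, while the strongest colours lie in dim genes such as DRD2, HTR1A and GABRR3.

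The second long day was compared with the short day at the same 6 hours of the day. Of the 68 receptor genes kept, 3 changed and all 3 were lower on the second long day: GRIA3, an AMPA receptor subunit, GRIK3, a kainate receptor subunit, and GABRA2, the alpha 2 subunit of the GABA-A receptor. None was higher. Across all 32057 probe sets tested, 1.37% passed the same threshold, a limma adjusted p under 0.05 (0.97% lower and 0.396% higher). Taking the brightest probe set of each of 12289 genes the share was 2.08% (1.6% lower), and among the 5686 of these above the array median on all arrays it was 4.1%, with 3.24% lower. All 3 changed receptor genes belong to that brighter group, in which 3 of 34 receptor genes passed.

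At an unadjusted p under 0.05, 19 of 68 receptor genes (27.9%) differed, 12 lower and 7 higher, against 11.9% of all probe sets. In the genes above the array median on all arrays the shares were 38.2% of receptor genes and 20.5% of all genes. There the receptor genes split into 11 lower and 2 higher, and all genes into 736 lower and 432 higher. No test of the list as a whole was made. The median difference over the 68 genes was 0.04 on the log2 scale, as was that of all probe sets, with 40 genes above 0 and 28 below. Over the brightest probe set of each gene the median was 0.014. With each array centred on its median, or with no rescaling, the median over all probe sets shifted by -0.11 and -0.23 on the log2 scale and that over the receptor genes turned negative, so no common direction is given for the receptor genes.

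**Figure D2:**
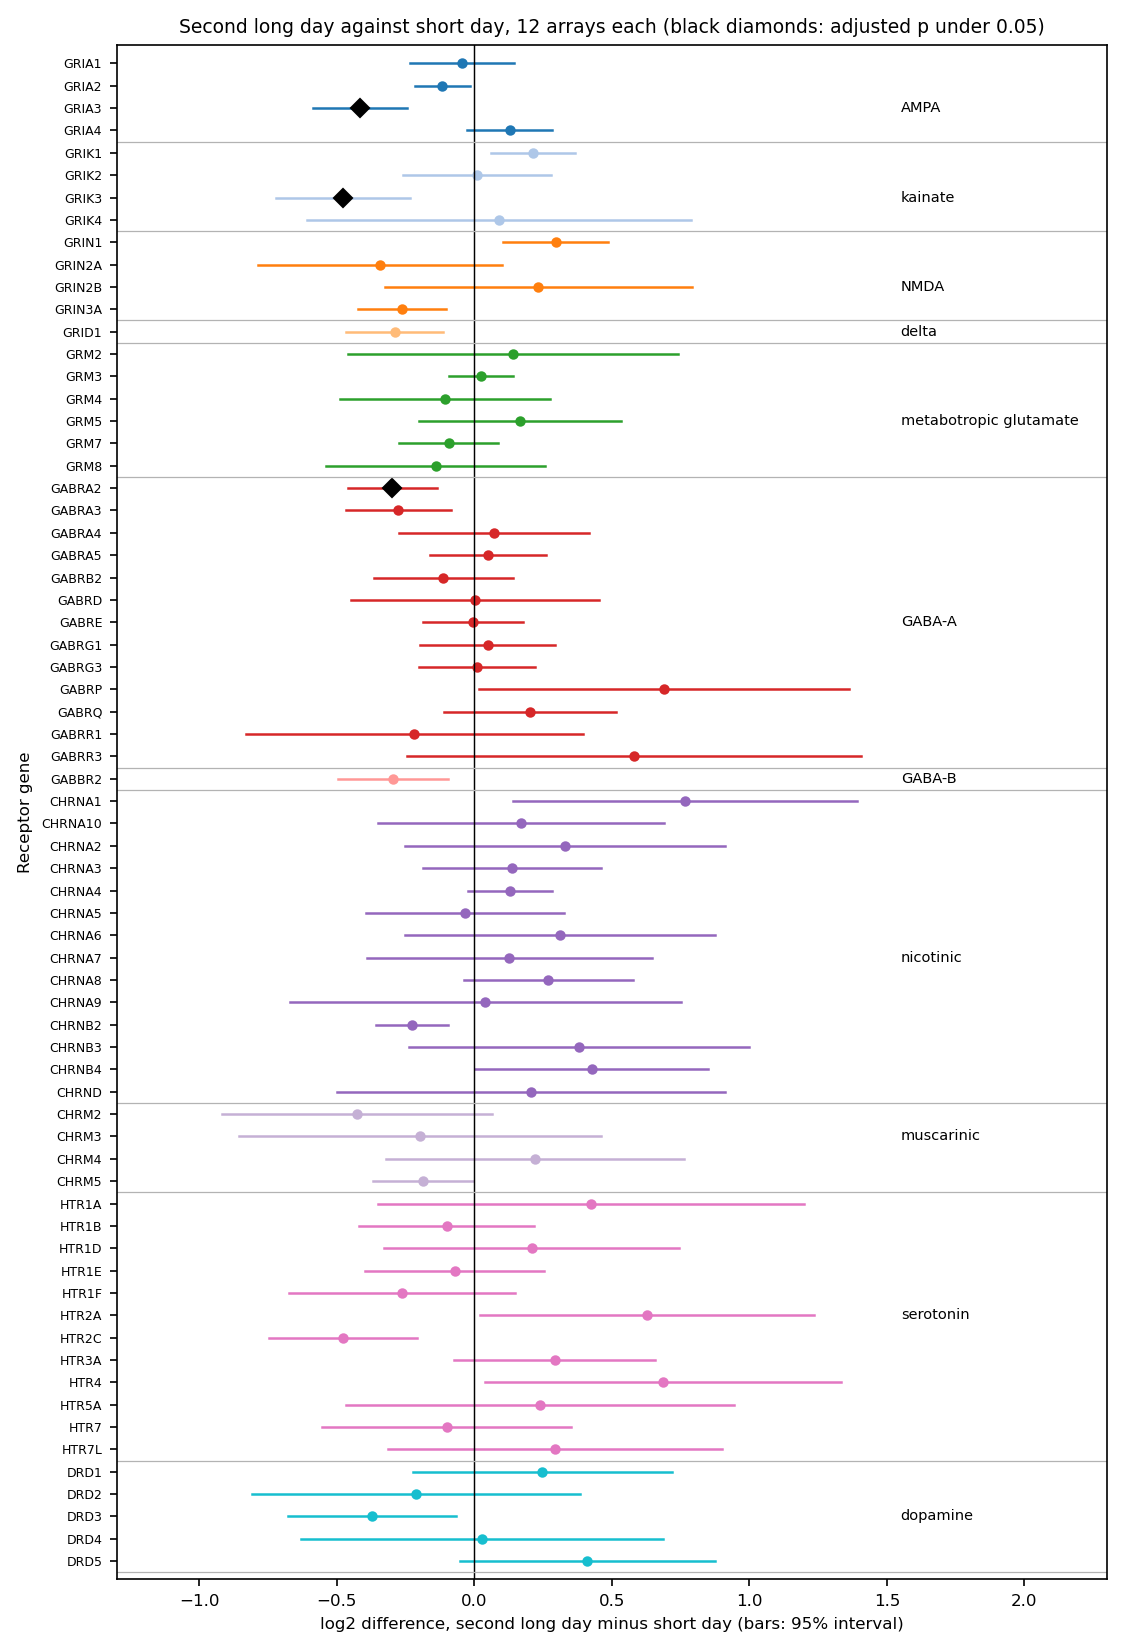
Log2 difference of the second long day minus the short day (x axis) for each kept receptor gene (y axis, grouped and coloured by class), from 12 arrays against 12, with 95% intervals from the limma model. Black diamonds mark GRIA3, GRIK3 and GABRA2, which passed an adjusted p of 0.05 and lie below 0; intervals widen in dim genes such as GABRR3 and HTR1A.

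Among the AMPA receptor genes, GRIA3 changed. Its signal on the short day was lowest at 305, with a median of 372 and a highest value of 424. On the first long day these values were 219, 273 and 407, and on the second 215, 265 and 356. The groups overlapped, but 9 of 12 arrays of the second long day lay below every short-day array, and all 12 lay below the short-day median. The difference was -0.42 ± 0.08 on the log2 scale (SE), a 1.33-fold lower signal (95% interval 1.19 to 1.501, limma adjusted p = 0.00422 with 12 arrays on each day), lower at 6 of 6 hours.

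By time, GRIA3 was highest at 18 h of the short day, at 411 ± 19.0 (SD, n = 2), and lowest at 42 h, the same hour of the first long day, at 245 ± 36.6. It stood at 278 ± 39.4 at 26 h, at 374 ± 46.5 at 34 h and at 266 ± 3.97 at 38 h, and on the second long day every time mean lay between 254 and 303. The short-day time means lay between 338 and 411. The first long day thus held time means both within and below the short-day range, and every time mean of the second long day lay below it. The call was kept in all 42 fits that left out 1 array and without both arrays of 62 h, and was lost with an empirical Bayes fit without a variance trend (adjusted p = 0.0772).

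GRIA2 had 2855, 3022 and 3321 as lowest, median and highest signals on the short day. On the second long day these were 2315, 2896 and 3023. Of the 12 arrays of that day, 11 lay below the short-day median and 5 lay below every short-day array. GRIA2 passed in 1 of 14 other settings, which was no rescaling (adjusted p = 4.35e-04). At the main settings the GRIA2 difference was small, -0.12 ± 0.05 on the log2 scale (SE), and did not pass (adjusted p = 0.309). GRIA1 and GRIA4, the remaining AMPA subunits, did not pass either. GRIA1 had a median of 143 on the short day and 140 on the second long day, and GRIA4 medians of 213 and 245.

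The kainate receptor genes GRIK1 and GRIK3 had differences of opposite sign. GRIK3 ran from 59.2 to 111 on the short day with a median of 103, from 49.3 to 115 on the first long day with a median of 79.1, and from 43.5 to 88.6 on the second with a median of 73.1. All 12 arrays of the second long day lay below the short-day median, and 3 lay below the lowest short-day array. GRIK3 fell by 0.48 ± 0.12 on the log2 scale (SE), which is 1.39-fold (95% interval 1.18 to 1.65, n = 12 against 12, adjusted p = 0.0315), and was lower at 6 of 6 hours. The GRIK3 call was lost without both arrays of 62 h (adjusted p = 0.0819) and in 13 of the 42 fits that left out 1 array. Those arrays were replicate 1 of 6, 14, 50, 54, 66 and 70 h and replicate 2 of 2, 6, 10, 18, 22, 58 and 62 h, with adjusted p from 0.0505 to 0.0998. GRIK3 also did not pass with no filter on dim probe sets, without a variance trend, or with only the arrays of the days compared.

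GRIK1, a kainate subunit that forms channels on its own or with others, had 182, 220 and 291 as lowest, median and highest signals on the short day. On the second long day these were 222, 259 and 304. All 12 arrays of that day were above the short-day median, and 2 were above every short-day array. The difference was 0.21 ± 0.08 on the log2 scale (SE, adjusted p = 0.192), which did not pass. With no rescaling of the arrays it turned to -0.05, and with quantile normalization it was 0.28 and passed (adjusted p = 0.0395).

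**Figure D3:**
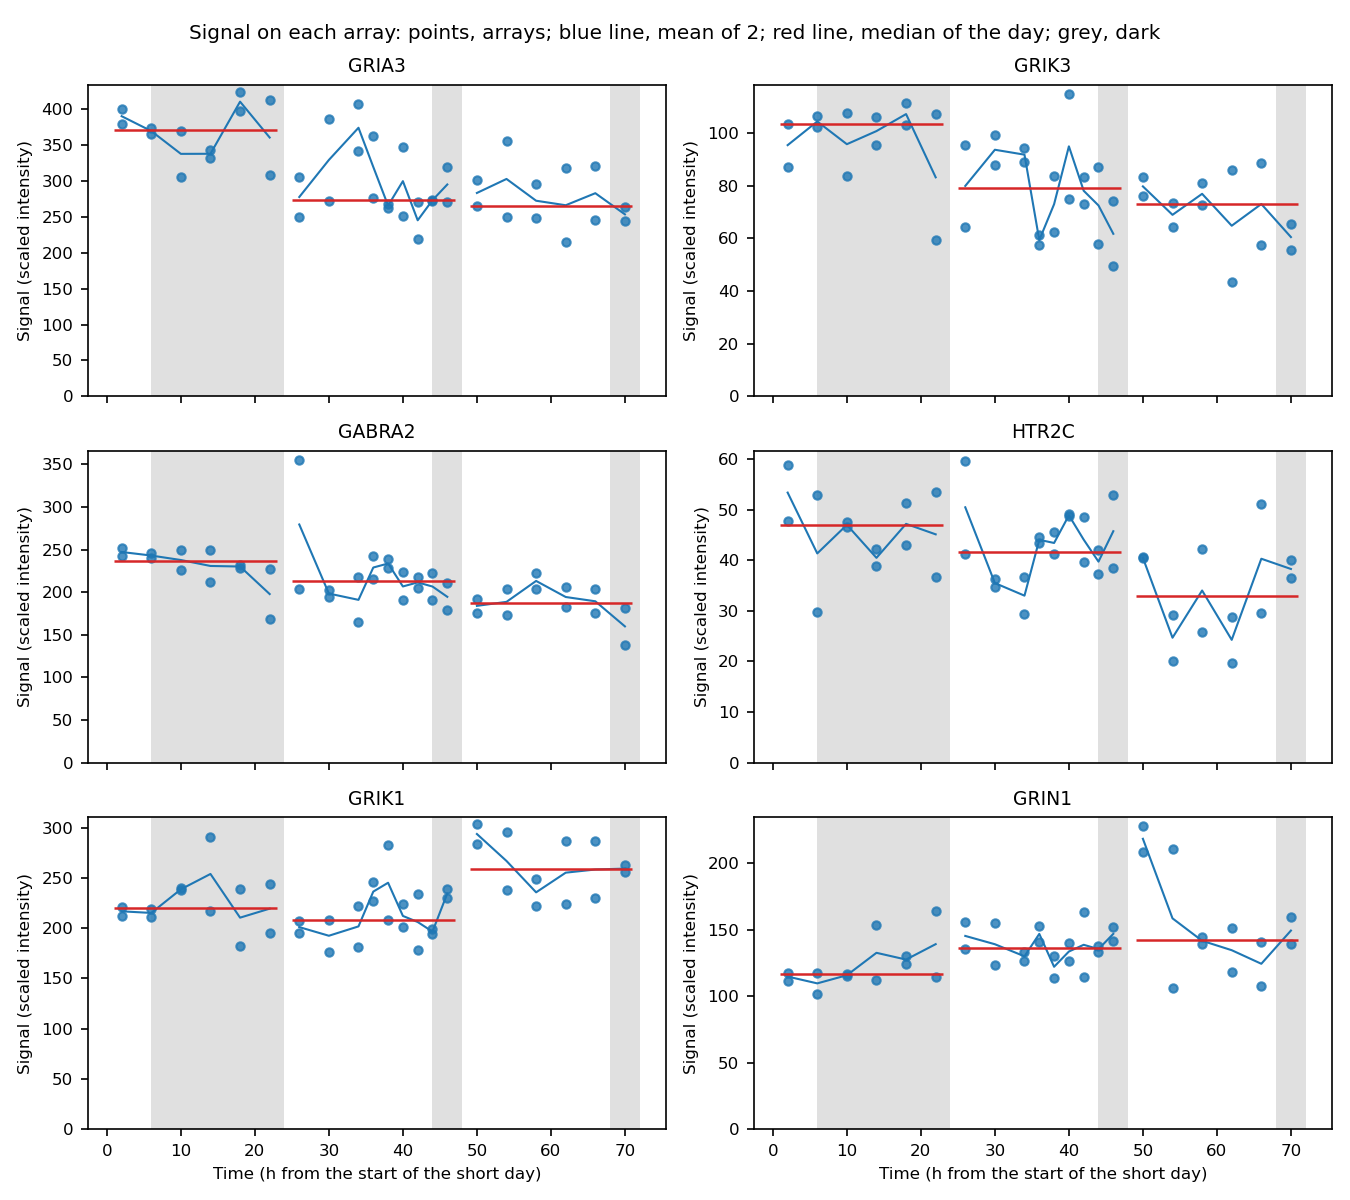
Signal on each of the 42 arrays (points) against time in h from the start of the short day for GRIA3, GRIK3, GABRA2, HTR2C, GRIK1 and GRIN1; blue lines join the means of 2 arrays, red lines are day medians and grey bands are the hours read as dark. In GRIA3, GRIK3 and GABRA2 the red line steps down over the days, to 265, 73.1 and 187 on the second long day, with overlapping points.

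Of the 13 GABA-A receptor genes kept, GABRA2 changed. Its signal ran from 168 to 252 on the short day with a median of 236, from 165 to 355 on the first long day with a median of 213, and from 138 to 223 on the second with a median of 187. All 12 arrays of the second long day were below the short-day median, 10 of 12 short-day arrays lay above every array of the second long day, and 1 array of that day lay below the short-day range. GABRA2 fell by 0.30 ± 0.08 on the log2 scale (SE), which is 1.23-fold (95% interval 1.10 to 1.38, n = 12 against 12, adjusted p = 0.0484), and was lower at 6 of 6 hours. The lowest time mean was at 70 h, 160 ± 30.7 (SD, n = 2), and the highest at 26 h, 279 ± 107, where 1 of the 2 arrays was at 355 and the other at 204.

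The adjusted p of GABRA2 lay just under the threshold, and the call was kept in 9 of the 42 fits that left out 1 array. Those were the fits without replicate 1 of 14, 22, 26, 34 or 54 h or without replicate 2 of 26, 34, 66 or 70 h. In the other 33 the adjusted p of GABRA2 ran from 0.0501 to 0.134, and without both arrays of 62 h it was 0.0813. GABRA2 did not pass with quantile normalization (adjusted p = 0.209) or with the brightness of the arrays as a covariate (adjusted p = 0.0918). Nor did it pass with no filter on dim probe sets, without a variance trend, or with only the arrays of the days compared. The difference itself stayed between -0.33 and -0.26 on the log2 scale in those 42 fits.

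GABRA3, the alpha 3 subunit, had short-day signals from 105 to 176 with a median of 151 and second long-day signals from 99.4 to 153 with a median of 121. Its difference was -0.28 ± 0.09 on the log2 scale (SE, adjusted p = 0.172), below 0 at 6 of 6 hours. GABBR2, the GABA-B subunit that couples the receptor to its G protein, had medians of 191 on the short day and 154 on the second long day, and 5 of 12 arrays of that day lay below the short-day range while 1 lay above it. Its difference was -0.30 ± 0.10 (SE, log2, adjusted p = 0.151). Both passed with median centring, GABRA3 at an adjusted p of 0.0274 and GABBR2 at 0.0212, and with no rescaling, at 0.00103 and 0.00124. GABRP, the pi subunit, was dim, with a median of 10.99 on the short day, when 3 of 12 arrays were at the floor, and of 16.6 on the second long day, when none was. Its difference of 0.69 ± 0.33 (SE, log2) did not pass (adjusted p = 0.404).

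Among the NMDA, delta and metabotropic glutamate genes no gene passed. GRIN1, the subunit that every NMDA receptor contains, had 102, 117 and 164 as lowest, median and highest signals on the short day and 106, 143 and 228 on the second long day. The difference was 0.30 ± 0.09 on the log2 scale (SE, adjusted p = 0.126), and 3 arrays of the second long day, both arrays of 50 h and 1 of 54 h, lay above the short-day range. GRIN1 passed without replicate 2 of 54 h (adjusted p = 0.0139). GRIN3A, a subunit that lowers calcium entry through NMDA receptors in mammals, had a median of 195 on the short day, of 162 on the first long day and of 159 on the second. All 18 arrays of the first and all 12 of the second long day were below its short-day median, and its difference on the second was -0.26 ± 0.08 (SE, log2, adjusted p = 0.0940). GRIN3A passed with median centring (adjusted p = 0.0117), with no rescaling (2.19e-04) and in the fits without replicate 1 of 22 h (0.0381) or of 62 h (0.0456).

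GRID1, a delta receptor that binds cerebellins at the synapse, had short-day signals from 93.2 to 112 and second long-day signals from 67.0 to 97.8. In GRID1, 9 of 12 arrays of the second long day lay below the short-day range, as many as in GRIA3, yet its difference of -0.29 ± 0.09 (SE, log2) had an adjusted p of 0.0934. GRID1 passed with median centring (adjusted p = 0.0118), with no rescaling (7.22e-04) and without replicate 1 of 50 h (0.0392). GRM3, a metabotropic receptor coupled to inhibitory G proteins, had medians of 796, 766 and 830 on the short, first long and second long day. GRM7, a presynaptic receptor of the same kind, had medians of 401, 411 and 390. GRM5, which couples to phospholipase C, varied more, with single arrays from 12.6 to 126.

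Of the 14 nicotinic genes kept, 12 had a difference above 0 on the second long day and 2 below, a split that moved to 9 against 5 with median centring and to 6 against 8 with no rescaling. At the main settings 18126 of all 32057 probe sets were above 0. Many nicotinic genes were dim: 5 of 15 lay above the array median on all arrays, and CHRNA2 and CHRNA9 were at the floor on 22 and 16 arrays. No nicotinic gene passed at the main settings. CHRNB2, the beta 2 subunit of the main neuronal nicotinic receptors, was one of the pair below 0: its median was 265 on the short day and 215 on the second long day, 7 of 12 arrays of that day lay below the short-day range, and the difference was -0.23 ± 0.06 (SE, log2, adjusted p = 0.0723). CHRNB2 passed in 5 of 14 other settings, which were median centring (adjusted p = 0.00795), no rescaling (5.95e-05), no filter on dim probe sets (0.0425), the filter at 21 arrays (0.0384) and array brightness as a covariate (0.0239), and without replicate 2 of 54 h (0.0206) or replicate 1 of 62 h (0.0436). CHRNA4, the usual partner of beta 2, had medians of 124, 129 and 134 on the 3 days. CHRNA1, a muscle subunit, was dim, with a median of 7.71 on the short day and 15.2 on the second long day, and 5 of 42 arrays at the floor. Its difference of 0.77 ± 0.31 (SE, log2) was the highest of all receptor genes and did not pass (adjusted p = 0.273). CHRNB4, the beta 4 subunit, rested on medians of 18.2 and 24.4, with a difference of 0.43 ± 0.21 (SE, log2, adjusted p = 0.419).

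None of the 4 muscarinic genes passed. CHRM5, a receptor coupled to phospholipase C and the muscarinic gene above the array median on all arrays, had a median of 97.1 on the short day and of 86.0 on the second long day, with a difference of -0.19 ± 0.09 (SE, log2, adjusted p = 0.404). CHRM2, coupled to inhibitory G proteins, had medians of 34.8 and 25.3. All 12 arrays of the second long day lay below its short-day median, but single arrays ran from 6.62 to 50.8 on the short day, and the difference of -0.43 ± 0.24 (SE, log2) had an adjusted p of 0.514. Single arrays moved it: without replicate 1 of 2 h it was -0.25 and without replicate 2 of 2 h, the array at 6.62, it was -0.60.

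None of the 12 serotonin and 5 dopamine genes passed. HTR2C, a serotonin receptor that in mammals acts on arcuate neurons to curb feeding, came closest. Its signal ran from 29.8 to 58.9 on the short day with a median of 47.0, and from 19.8 to 51.1 on the second long day with a median of 33.0. In HTR2C, 6 of 12 arrays of that day lay below the short-day range, and the 2 lowest time means of the series were at 62 h, 24.3 ± 6.34 (SD, n = 2), and at 54 h, 24.7 ± 6.36. The difference was -0.48 ± 0.13 on the log2 scale (SE), 1.39-fold (95% interval 1.16 to 1.68, adjusted p = 0.0610), below 0 at 6 of 6 hours. HTR2C passed in 4 of 14 other settings, with quantile normalization (adjusted p = 0.0394), median centring (0.00924), no rescaling (5.29e-04) and the filter at 21 arrays (0.0347), and in 6 of the 42 fits that left out 1 array, those without replicate 1 of 6, 22, 58 or 62 h or replicate 2 of 54 or 66 h.

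HTR4 and HTR2A, serotonin receptors of the Gs and Gq kind, lay near the floor. HTR4 had 6 of 12 short-day arrays at the floor and 1 of 12 on the second long day, and HTR2A had 4 and 1. Their differences were 0.69 ± 0.32 (SE, log2, adjusted p = 0.380) and 0.63 ± 0.30 (SE, log2, adjusted p = 0.399), and both depend on where the floor is set. DRD3, a dopamine receptor coupled to inhibitory G proteins, had a median of 26.8 on the short day and 22.5 on the second long day, with a difference of -0.37 ± 0.15 (SE, log2, adjusted p = 0.279).

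Most receptor genes had several probe sets, and these often did not move together. Of the 56 kept probe sets beyond the brightest, 30 had the sign of the brightest in the second long day minus the short day. GRIA3 had 3 probe sets. The second, with a mean signal of 70.9, fell by 0.38 on the log2 scale and also passed (adjusted p = 0.028), and the third, with a mean of 64.5, had a difference of -0.37 (adjusted p = 0.17). The other GRIK3 probe set had a difference of 0.01 and the other GABRA2 probe set one of -0.06 (adjusted p = 0.88), so in these genes the change was measured by 1 probe set alone. That GRIK3 probe set was dim and spread widely, from 5.91 to 51.5 on the short day and from 2.15 to 96.8 on the second long day. In HTR2C and GRIN3A, too, a dimmer probe set lay at or above 0. The 3 probe sets of GRIK1 lay at 0.21, 0.29 and 0.19 on the log2 scale.

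**Figure D4:**
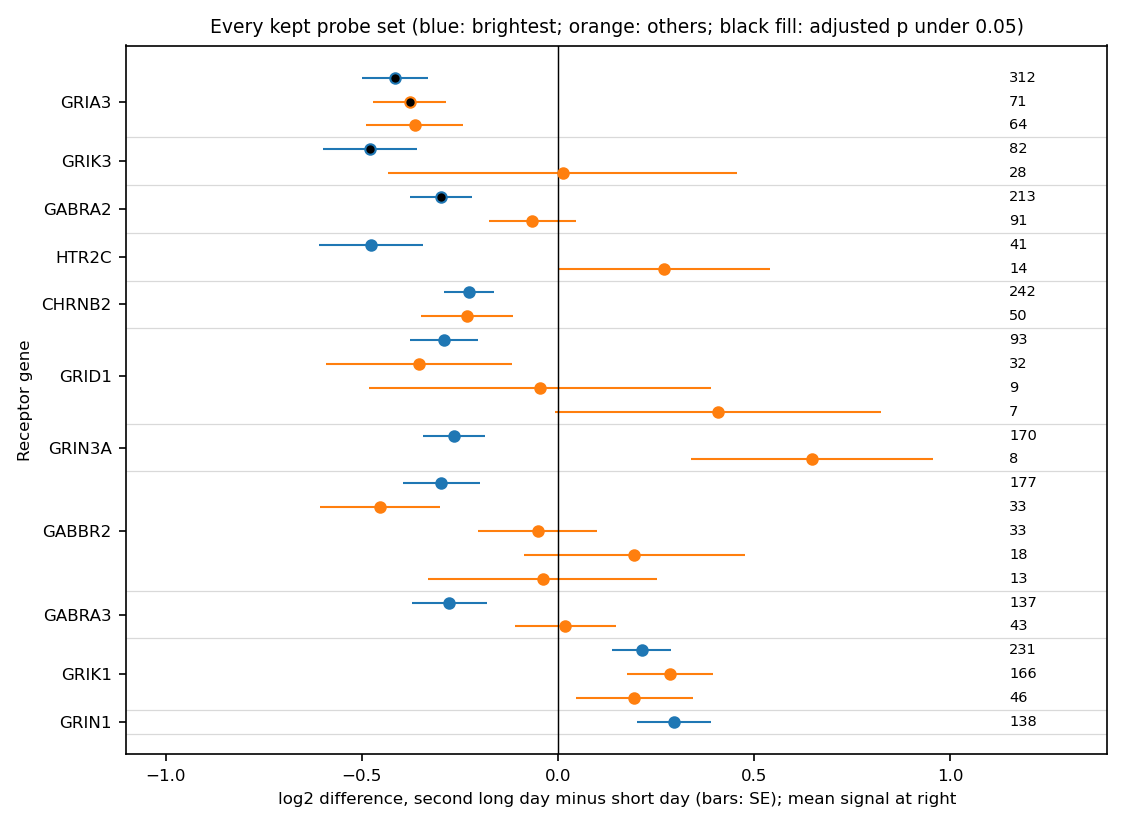
Log2 difference of the second long day minus the short day (x axis, with SE bars) for every kept probe set of 11 receptor genes (y axis), the brightest in blue and the others in orange, with the mean signal printed at the right and black centres where the adjusted p was under 0.05. The 3 probe sets of GRIA3 lie close together below 0 and those of GRIK1 above 0, whereas in GRIK3, HTR2C and GRIN3A a dimmer probe set lies at or above 0.

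The first long day was compared with the short day at hours 10 to 22, with 8 arrays against 8. Hours 10, 14 and 18 were lit on the long day and dark on the short day, and hour 22 was dark on both. No receptor gene passed (0 of 68, against 0.0561% of all probe sets), and 8 had an unadjusted p under 0.05, which is 11.8% against 5.63% of all probe sets. By the brightest probe set of each gene, that share was 6.34%. In the genes above the array median on all arrays the shares were 23.5% of receptor genes and 7.83% of all genes. GRIN3A had the smallest adjusted p, 0.644, at a difference of -0.29 ± 0.10 (SE, log2). The genes that fell on the second long day had differences here of -0.31 ± 0.10 for GRIA3 (SE, log2, adjusted p = 0.652), -0.35 ± 0.15 for GRIK3 (adjusted p = 0.836) and -0.11 ± 0.10 for GABRA2 (adjusted p = 0.964). Both comparisons use the same short-day arrays, so these values are not independent of those of the second long day.

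CHRNA8 and GABRG3 had upward differences in that window, and neither passed. Over all hours, CHRNA8, a nicotinic subunit known from chicken, ran from 15.03 to 47.0 on the short day and from 21.2 to 81.6 on the first long day. Of the 18 arrays of the first long day, 14 lay above the short-day median. Its highest time mean was at 42 h, 63.6 ± 25.4 (SD, n = 2), and its lowest at 14 h, 19.7 ± 6.67. The CHRNA8 difference in the window was 0.52 ± 0.18 (SE, log2, adjusted p = 0.701). GABRG3, the gamma 3 subunit of the GABA-A receptor, had whole-day medians of 98.5 and 112 and a difference in the window of 0.32 ± 0.13 (SE, log2, adjusted p = 0.817). The largest differences lay in dim genes: HTR1A, an inhibitory serotonin receptor, at 0.82 ± 0.47 (SE, log2), GABRP at 0.81 ± 0.41, and CHRM3, a muscarinic receptor with 12 of 18 arrays of the first long day at the floor, at -0.77 ± 0.40, each with an adjusted p above the threshold (0.912, 0.887 and 0.891).

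A joint test of the 4 hours gave 0 of 68 receptor genes (against 0.053% of all probe sets), with 7 at an unadjusted p under 0.05 (10.3% against 4.5%) and a smallest adjusted p of 0.800, for GRIA3. At hours 2 and 6, which were counted as lit on both days, the first long day minus the short day gave 0 of 68 as well (against 0.00312%), with 4 at an unadjusted p under 0.05 (5.88% against 5.32%). GRIA3 differed by -0.34 ± 0.15 (SE, log2, adjusted p = 0.879) over these 4 arrays a day. CHRNA1 differed by 1.44 ± 0.53 (SE, log2, adjusted p = 0.832), with 2.03, 4.93, 5.21 and 9.11 on the short-day arrays and 12.3, 12.5, 13.8 and 20.7 on those of the first long day, where the lowest short-day value is under the floor. GRM4, a presynaptic glutamate receptor, differed by -0.70 ± 0.33 (SE, log2, adjusted p = 0.926), and 1 array of 26 h, at 6.11, stood apart from the other at 26.0.

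The second long day minus the first, at the same 6 hours, gave no passing receptor gene (0 of 68, against 0.0905% of all probe sets) and 4 at an unadjusted p under 0.05 (5.88% against 7.86%). GRIK1 came closest: its median was 208 on the first and 259 on the second long day, and the difference was 0.30 ± 0.08 on the log2 scale (SE, adjusted p = 0.131), above 0 at 6 of 6 hours. HTR2C differed by -0.35 ± 0.13 (SE, log2, adjusted p = 0.447) and GABRA2 by -0.20 ± 0.08 (SE, log2, adjusted p = 0.506). GRIA3 differed by -0.10 ± 0.08 (SE, log2, adjusted p = 0.817) and GRIK3 by -0.17 ± 0.12 (SE, log2, adjusted p = 0.756). The 95% interval of GRIA3 between the long days ran from -0.27 to 0.07, and that of GRIK3 from -0.42 to 0.07. CHRM4, a muscarinic receptor coupled to inhibitory G proteins, differed by 0.60 ± 0.27 (SE, log2, adjusted p = 0.580), with medians of 19.5 and 22.9.

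No daily profile of a receptor gene passed. Over the 6 times of the short day 0 of 68 passed (against 0.0624% of all probe sets), over the 9 times of the first long day 0 (against 0.0624%), and over the 6 times of the second long day 0 (against 0.0499%). The difference between the profiles of the second long day and the short day gave 0 (against 0.00312%), and the test over all 21 time points gave 0 (against 0.221%). At an unadjusted p under 0.05 there were 4 receptor genes for the short day (5.88%, against 4.31% of all probe sets), 4 for the first long day (5.88% against 4.21%) and 6 for the second (8.82% against 9.31%). There were 4 for the difference of profiles (5.88% against 5.78%) and 9 over all 21 time points (13.2% against 6.95%). In that last test GRM5 had the smallest adjusted p, 0.422. Its highest time mean was at 42 h, 107 ± 26.0 (SD, n = 2), and its lowest at 34 h, 27.9 ± 21.6, both on the first long day. On the second long day GRM5 stood at 42.0 ± 5.20 at 58 h and at 100 ± 11.3 at 62 h.

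The remaining genes with wide time courses did not pass the test over all 21 time points either. GABRB2, the beta 2 subunit of the GABA-A receptor, stood at 506 ± 97.8 (SD, n = 2) at 38 h and at 222 ± 54.2 at 40 h of the same day (adjusted p = 0.70 with limma over the 21 times). GABRG1, the gamma 1 subunit, was highest at 26 h, 81.7 ± 15.1, and lowest at 10 h, 37.9 ± 7.84 (adjusted p = 0.686). GRIN2B, an NMDA subunit that binds glutamate, was at 20.4 ± 3.81 at 54 h and at 4.93 ± 0.31 at 22 h (adjusted p = 0.871). CHRNA7, a nicotinic subunit that forms channels by itself, had medians of 14.6, 17.0 and 14.9 over the 3 days. GABRR3, GRIK4, CHRNA9 and DRD4 reached the floor on 14, 6, 16 and 5 of the 42 arrays, so their time courses are measured only in part. The highest time means were 18.2 ± 6.26 at 22 h for GABRR3, a rho subunit, and 15.4 ± 5.18 at 14 h for GRIK4, a kainate subunit. For the nicotinic subunit CHRNA9 the highest was 17.0 ± 10.4 at 62 h, and for the dopamine receptor DRD4 it was 14.4 ± 0.57 at 66 h. Their adjusted p-values with limma over the 21 times lay between 0.949 and 0.967.

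Within the short day, hours 2 and 6, counted as lit, were set against the dark hours 10 to 22, 4 arrays against 8. Of the receptor genes, 0 of 68 passed (against 0.0624% of all probe sets), with 5 at an unadjusted p under 0.05 (7.35% against 4.75%). DRD2, a dopamine receptor coupled to inhibitory G proteins, had 0.697, 4.52, 12.5 and 14.6 on the lit arrays, the first under the floor, and 11.4 to 25.2 on the dark ones. Its difference was -1.14 ± 0.44 (SE, log2, adjusted p = 1.00). GABRG3 had 93.7 to 156 in the lit hours and 70.3 to 131 in the dark, a difference of 0.44 ± 0.16 (SE, log2, adjusted p = 0.959). CHRNA8 differed by 0.53 ± 0.23 (SE, log2, adjusted p = 1.00). The dark short-day arrays used here also stood against the first long day above. The differences of GABRG3 and CHRNA8 in both comparisons are therefore not independent. GRIN1 was highest at 50 h, 219 ± 14.0 (SD, n = 2), and lowest at 6 h, 110 ± 11.4.

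Genes that act beside the receptors were examined from 3 lists chosen with results of these data known. Of 40 kept genes for proteins that anchor receptors or travel with them, 4 fell on the second long day and 0 rose, where 2.08% of all genes, and 4.1% of those above the array median on all arrays, were called. They were HOMER1, which links metabotropic glutamate receptors to the postsynaptic scaffold, GPHN, the gephyrin that clusters GABA-A receptors, CACNG4, an auxiliary AMPA receptor subunit, and DLGAP4, a protein of the postsynaptic density. Of 26 kept genes for G proteins and enzymes downstream of receptors, 5 fell and 0 rose: GNAS and GNAL, which stimulate adenylyl cyclase, GNA11 and PLCB4, the Gq-type alpha subunit and a phospholipase C it drives, and RGS9, which ends G protein signals. Of 15 kept genes for synthesis and breakdown of transmitters, 0 passed in either direction. Above the array median on all arrays were 27, 23 and 8 genes of the 3 lists in that order. The medians of the 3 lists were -0.06, -0.13 and -0.04 on the log2 scale, and no test of a list was made. The median was 0.04 over all probe sets and 0.014 over the brightest probe set of each gene. Over the genes above the array median on all arrays it was -0.015. In the first long day at hours 10 to 22, 0 genes of the 3 lists passed.

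The counts of the 3 lists depended on the settings. With no rescaling they were 14, 18 and 4, all lower, while 3510 of all 32057 probe sets were called in place of 438. With only the arrays of the days compared they were 3, 2 and 0, with quantile normalization 3, 3 and 0, and without a variance trend 1 (HOMER1), 1 (GNAS) and 0. Of all 32057 probe sets, 272 were called with only the arrays of the days compared and 149 without a variance trend. In that last setting GPHN had an adjusted p of 0.128, CACNG4 of 0.111, DLGAP4 of 0.272, GNA11 of 0.0745, GNAL of 0.178, PLCB4 of 0.166 and RGS9 of 0.0757.

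HOMER1 ran from 155 to 409 on the short day with a median of 200, and from 122 to 234 on the second long day with a median of 162. It fell by 0.44 ± 0.08 on the log2 scale (SE, adjusted p = 8.95e-04), and its first long-day median was 212. On the short day HOMER1 stood at 366 and 409 at 2 h and at 299 and 262 at 6 h. From 10 to 22 h of that day it ran from 155 to 202. The second long day had 180 and 234 at 50 h, 146 and 182 at 54 h, and 151 and 167 at 70 h. The fall was thus largest at hours 2 and 6. HOMER1 was also called higher at hours 2 and 6 of the short day than at hours 10 to 22. It was called lower on the second than on the first long day. GPHN had medians of 600, 503 and 460 over the 3 days and fell by 0.34 ± 0.08 (SE, log2, adjusted p = 0.0110). CACNG4 had medians of 142, 122 and 110 and fell by 0.35 ± 0.09 (SE, log2, adjusted p = 0.0226), and DLGAP4 medians of 1217, 1182 and 1083 with a fall of 0.19 ± 0.05 (SE, log2, adjusted p = 0.0381). Without both arrays of 62 h the calls of CACNG4 (adjusted p = 0.0941) and DLGAP4 (adjusted p = 0.0787) were lost, and those of HOMER1 and GPHN were kept.

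GNAS had 568, 683 and 805 as lowest, median and highest signals on the short day and 410, 550 and 608 on the second long day. It fell by 0.38 ± 0.06 on the log2 scale (SE, adjusted p = 2.33e-04), lower at 6 of 6 hours. GNA11 fell by 0.35 ± 0.07 (SE, log2, adjusted p = 0.00337), from a median of 348 to 284. GNAL fell by 0.26 ± 0.06 (adjusted p = 0.0217), PLCB4 by 0.27 ± 0.07 (adjusted p = 0.0252) and RGS9 by 0.57 ± 0.15 (adjusted p = 0.0438), all SE and log2. Without both arrays of 62 h, GNAL (adjusted p = 0.132) and PLCB4 (adjusted p = 0.0572) did not pass, and 3 of the 5 calls remained in that list. Leaving out single arrays ended the call of RGS9 in 21 of 42 fits, of DLGAP4 in 16, of PLCB4 in 9, of GNAL in 8 and of CACNG4 in 6, and those of HOMER1, GPHN, GNAS and GNA11 in none. Replicate 2 of 18 h and replicate 2 of 22 h were among the arrays that did so for each of these 5 genes, and the adjusted p reached 0.121 for RGS9, 0.0905 for DLGAP4, 0.0680 for PLCB4, 0.0725 for GNAL and 0.0679 for CACNG4. With quantile normalization DLGAP4 (adjusted p = 0.0932), GNAL (0.105) and PLCB4 (0.109) did not pass.

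Other probe sets of these 9 genes did not always fall. CACNG4, GPHN and GNA11 had 1 probe set each. The second GNAS probe set, with a mean signal of 72.2, also fell (-0.55 on the log2 scale, adjusted p = 0.00148), the third lay at -0.07, and the 3 dimmer ones lay at 0.17, 0.38 and 0.20 and did not pass. In HOMER1 the others had differences of -0.47 (adjusted p = 0.0628) and -0.21, in DLGAP4 of -0.11 and 0.16, in GNAL of -0.04 and in PLCB4 of -0.12, 0.20 and 0.34. In RGS9, a probe set nearly as bright as the called one, at a mean signal of 29.2 against 33.5, had a difference of 0.14 (adjusted p = 0.782), and the others lay at 0.01 and -0.59 and did not pass. In DLGAP4, GNAL, PLCB4 and RGS9 the call thus rested on 1 of several probe sets.

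**Figure D5:**
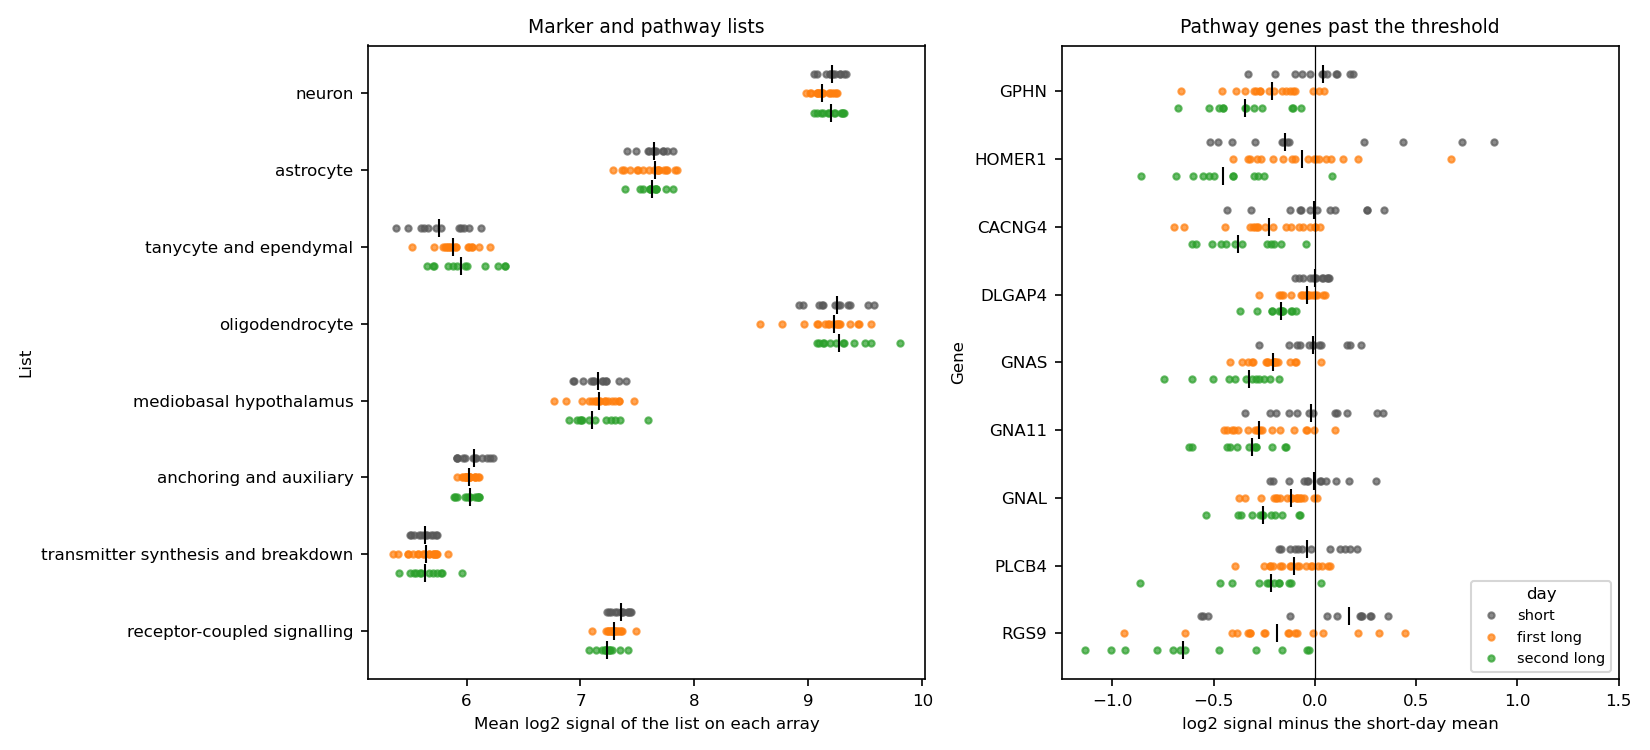
Left, mean log2 signal of each list on each array, by day (points, arrays; black ticks, medians), for 5 lists of cell or tissue markers and 3 lists of genes that act beside the receptors. Right, log2 signal minus the short-day mean on each array for the 9 genes of those lists that fell on the second long day: the green points lie mostly left of 0.

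In bulk RNA, fewer cells of a type and less RNA per cell cannot be told apart, so markers of the cells present are given beside these changes. The mean log2 signal of 15 kept neuron markers ran from 9.05 to 9.33 on the short day, from 8.98 to 9.25 on the first long day and from 9.05 to 9.31 on the second, with medians of 9.21, 9.12 and 9.20. Between the short and the second long day, 6 of the 15 had a difference above 0, and their median was -0.0092 on the log2 scale. For the first long day at hours 10 to 22, 4 of the 15 were above 0, with a median of -0.074. There the median was -0.047 over the receptor genes and 0.0047 over all probe sets. With the mean of the neuron markers as a covariate, GRIA3 and GRIK3 passed and GABRA2 had an adjusted p of 0.0528. Of the list of anchoring proteins 4 genes were then called, as without it, and of that of G proteins and enzymes 4 in place of 5. That mean was nearly the same on the short and the second long day, so the covariate could alter their difference little. A loss of only those neurons that express these genes was not tested. Of the neuron markers, SYT1, a calcium sensor of transmitter release, was the only one called, and it was higher on the second long day (0.27 ± 0.07, SE, log2, adjusted p = 0.0488). The SYT1 call was lost in 9 of 14 other settings and in 31 of the 42 fits that left out 1 array, among them those with median centring (adjusted p = 0.540), with no rescaling (0.986) and without both arrays of 62 h (0.146). The other SYT1 probe sets were also higher, at 0.43 (adjusted p = 0.0411) and 0.54 (adjusted p = 0.357) on the log2 scale.

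Markers of other cells were set beside the receptor genes in the same comparison, where the median over all probe sets was 0.04 on the log2 scale. Over the brightest probe set of each gene it was 0.014. By that probe set 2.08% of all genes were called, and 4.1% of those above the array median on all arrays. A short list with 0 called therefore says little of its cells. The 9 astrocyte markers lay at 7.41 to 7.81 on the short day and 7.39 to 7.81 on the second long day, and the 4 oligodendrocyte markers at 8.92 to 9.57 and 9.07 to 9.80, with 0 called in either list. In the tanycyte and ependymal list, at 5.38 to 6.13 and 5.65 to 6.34, VIM was called higher (1 of 7), and 4 of the 7 differences were above 0. In the anterior pituitary list, at 3.67 to 4.61 and 4.04 to 5.41, TSHB and CGA, the thyrotropin subunits, were called higher (2 of 7), while GH, PRL and POU1F1 were not and FSHB was never above the array median. Of that list, 6 of 7 differences were above 0, with a median of 0.39. In the choroid plexus list, at 3.68 to 4.57 and 3.62 to 4.78, TTR was called lower, while the other 6 of 7 differences were above 0 and did not pass. No microglia and leukocyte marker was called (0 of 8), with 7 differences above 0 and a median of 0.18. No endothelial marker (0 of 10, with 4 above 0) and no erythrocyte marker (0 of 7, with 1 above 0) was called. The part of these cells in the receptor results was not tested.

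The 3 genes taken by their first letters alone passed no test. HTRA2, a mitochondrial serine protease, had medians of 33.0, 34.6 and 31.2 on the short, first long and second long day, and HTRA3, a secreted serine protease, had medians of 127, 125 and 113. GRID2IP, a scaffold protein of the delta 2 glutamate receptor, was dim, with medians of 7.31, 10.4 and 11.4 and 6 of 42 arrays at the floor. Their adjusted p-values in the comparison of the second long day were 0.794, 0.565 and 0.750 in that order.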

How the data were processed

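Per the submitters' processing notes, the authors used GCOS 1.2. The deposited values are one intensity per probe set and array on a linear scale (38535 probe sets, 96 of them controls, left out here). The scaling target is not given in the sources used here. Each array was multiplied to a 2% trimmed mean of 32.42, and signals under 3.509, the arrays' median 25th percentile, were set to that floor before taking log2. Probe sets above the array median on at least 2 arrays were tested (32057). Symbols are those of GEO's platform annotation, which can be old: 27168 probe sets had 1 symbol, 177 several and 11094 none. A probe set naming both GABRA3 and GABRE was left out. Of the 76 symbols, 68 are in the quail RefSeq gene table.

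In limma 3.58.1 (R 4.3.3), lmFit estimated 1 mean for each time from all 42 arrays, followed by eBayes with a variance trend (21 residual degrees of freedom). Tests were two-sided with Benjamini-Hochberg adjustment over all tested probe sets and a threshold of 0.05. The labels call both arrays of a time point biological replicates. Their number limits precision. The fit was also run on simulated data with independent noise. The differences simulated were all larger than those of the called receptor genes, so that run does not cover effects of their size.

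Named genes are all members past the threshold, the 2 per class with the smallest p over the 21 times, the 5 highest and 5 lowest differences in 2 comparisons, and others chosen after their values were seen. The members and lists were chosen with earlier results of these data known. Alternatives were other scalings, floors, filters, probe sets, variance models, sample sets and covariates, a replicate block and leaving out each array.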

Additional observations from a re-analysis of the deposited data

How the results depend on the processing

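Between the short day and the second long day, the count of receptor genes called was 3, all lower. It was 9 with median centring, 14 as deposited without rescaling and 5 with the filter at 21 arrays, all lower. Calls over all probe sets rose too, from 438 of 32057 to 919, to 3510 and, with that filter, to 552 of 18493. Added with median centring were CHRNB2, GABBR2, GABRA3, GRID1, GRIN3A and HTR2C, as deposited also CHRM5, DRD3, GRIA2, GRM3 and GRM7, and with the filter CHRNB2 and HTR2C. It was 0 without a variance trend, 1 with only the arrays of the days compared (GRIA3) and 1 without both arrays of 62 h (GRIA3), an alternative chosen after seeing the data. Calls over all 32057 probe sets fell in these settings as well, to 149, 272 and 306 in that order. Leaving out 1 array gave 1 to 5. With no filter on dim probe sets GRIK3 and GABRA2 were lost and CHRNB2 was added. With quantile normalization GABRA2 was lost, and HTR2C (lower) and GRIK1 (higher) were added. GRIA3 was called in 55 of 56 alternatives, GRIK3 in 39 and GABRA2 in 16, and these differences kept their sign in all 56. For the second minus the first long day, where the count was 0, it was 2 as deposited (GABRA2 and HTR2C, lower) and 1 with quantile normalization (GRIK1, higher). Calls over all probe sets there were 29 at the main settings, 945 as deposited and 32 with quantile normalization. The other comparisons gave 0 in every alternative.

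The median log2 difference over the receptor genes moved with the scaling. With median centring it was -0.079 for the second long day minus the short day, -0.128 for the first long day at hours 2 and 6, -0.055 for the second minus the first long day and 0.107 for lit minus dark hours of the short day. As deposited these were -0.212, -0.221, -0.157 and 0.183. With quantile normalization the first and the third were 0.012 and -0.0043, and with the filter at 21 arrays the first and the second were 0.0034 and -0.095. With the neuron covariate lit minus dark hours gave 0.0075. Leaving out 1 array, the medians ran from 0.019 to 0.082 (second long day), from -0.090 to 0.0079 (first long day, hours 10 to 22), from -0.056 to 0.034 (hours 2 and 6), from -0.0083 to 0.056 (second minus first) and from 0.014 to 0.051 (lit minus dark). The median over all probe sets moved too, given here in the order of the median-centring values above. At the main settings it was 0.042, 0.041, 0.020 and -0.018. With median centring it was -0.072, -0.066, -0.067 and 0.039, and as deposited -0.185, -0.153, -0.156 and 0.110. GRIK1 turned to -0.051 as deposited. The cause was not tested.

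The replicate numbers do not pair the arrays: over 210 pairs of time points the correlation of same-numbered deviations ran from -0.035 to 0.038. With the replicate block the count for the second long day was 3 and those of the other comparisons 0. Arrays number 2 per time point, and 23 of 68 receptor genes reached the floor on at least 1 array, which limits what can be said of dim genes.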
